A study of Homo sapiens with 4 samples.

Results

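Expressed long noncoding RNA (lncRNA) genes of PC3 cells were examined for their levels and for their response to METTL3 knockdown. They were the lncRNA rows of the deposited count table with a mean CPM of at least 2 over 4 libraries, where CPM is a gene's count scaled to a library total of 1000000 counts. They were thus selected on their level in these libraries. KCNQ1OT1, OIP5-AS1, HOTAIR, MALAT1, NEAT1, NORAD, PVT1, GAS5, H19, ZFAS1 and the SNHG genes were set aside by name, which removed 28 lncRNA rows at the same minimum. This left 545 genes of 60544 rows in all and of 16813 lncRNA rows. The minimum used the level over all libraries and not the difference between groups, so levels are given as a description and the difference between groups was tested. Just inside the minimum were PAXBP1-AS1, at a mean of 2.003 CPM, and CH17-340M24.3, at 2.011 CPM. Just outside it were LINC01270, at 1.998 CPM, and AC132872.1, at 1.997 CPM.

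The study compared METTL3 knockdown with control in PC3, an established human prostate cancer line. The control group, labelled shNC, and the group labelled sh812 had 2 libraries each. All were made from poly(A) RNA, and no other treatment is named for either group. The group sh812 was read as the knockdown because it is the only label besides the control, so the knockdown rests on 1 hairpin name, and the labels do not say whether replicates came from separate cultures. The p-values therefore measure the spread between these libraries, which may be technical. In bulk RNA, fewer cells of a kind and less RNA per cell cannot be told apart.

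LncRNAs are transcripts without a long reading frame that are often spliced and polyadenylated like messenger RNA and are usually less abundant. Many are transcribed next to a protein-coding gene, either antisense to it or divergently from a shared promoter region, and some are hosts of microRNAs or of small nucleolar RNAs. METTL3 is the catalytic subunit of the nuclear complex that writes N6-methyladenosine (m6A), and the sequence GGACT is a common core of the sites it methylates, in noncoding as in coding transcripts.

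METTL3 itself had 1682 and 1379 counts in shNC and 269 and 313 in sh812. Its level in sh812 was 18.7% of control, with a log2 fold change of -2.42 (standard error, SE, 0.11, adjusted p = 5.54e-14 by the quasi-likelihood test of edgeR with Benjamini-Hochberg correction). The libraries held between 31450648 and 37041330 counts, of which the 545 lncRNA genes took 0.492% to 0.516%. The epithelial keratin genes KRT8 and KRT18, EPCAM and VIM were all expressed, and KLK3 (prostate-specific antigen) was at 0 in every library. EPCAM (log2 fold change 0.45, edgeR adjusted p = 0.000128) and KRT18 (0.30, edgeR adjusted p = 0.00793) were called higher, and KRT8 (0.13) and VIM (-0.18) were not called. Of the markers of other cell types, CD3E was at 0 and CDH5 had at most 6 counts. The endothelial pair PECAM1 and CDH5 summed to 23.8 CPM in each shNC library and to 32.9 and 38.7 CPM in sh812, and PECAM1 was called higher (log2 fold change 0.59, edgeR adjusted p = 0.000222). The 3 fibroblast markers summed to 47.9 and 49.6 CPM in shNC and to 43.4 and 48.5 CPM in sh812, with COL1A2 called higher (0.50, edgeR adjusted p = 0.0116), while COL1A1 had -0.27 (edgeR adjusted p = 0.0589) and DCN -0.56 (edgeR adjusted p = 0.575), neither called. The leukocyte pair stayed under 1 CPM in each library. The part of these markers in the results below was not tested.

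Because METTL3 methylates adenosine in a short sequence context, the first GGACT in the longest GENCODE 29 transcript is printed for 10 of the lncRNA genes on which the results turn, with 8 bases on each side. They comprise abundant members that rose or fell and members with large changes. The capitals mark GGACT, which is a match of letters and not a mapped m6A site. Sequences are from GENCODE 29 transcripts, 5′ to 3′, with GRCh38 positions. The abundant members that rose were LINC02582 at chr18:73324948-73324968 (plus strand), LOXL1-AS1 at chr15:73919911-73919931 (minus strand) and AL161431.1 at chr13:109269899-109269919 (plus strand). The members that fell were LINC00261 at chr20:22566708-22566728 (minus strand), EBLN3P at chr9:37087728-37087748 (plus strand), LINC00205 at chr21:45292083-45292103 (plus strand), LINC00632 at chrX:140779842-140779862 (plus strand) and GAS6-AS1 at chr13:113840792-113840812 (plus strand). Less abundant members that rose were AL355916.1 at chr14:61570620-61570640 (plus strand) and ELFN1-AS1 at chr7:1738734-1738754 (minus strand).
LINC02582: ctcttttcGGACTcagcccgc
LOXL1-AS1: ctccctcaGGACTggacctgg
AL161431.1: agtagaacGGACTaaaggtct
LINC00261: agagaaatGGACTtcaccagt
EBLN3P: atccagtgGGACTgggaatat
LINC00205: tattgtgaGGACTcagggtgg
LINC00632: agaaaatgGGACTtaaagtga
GAS6-AS1: ccacatgaGGACTcagccacg
AL355916.1: gtgctgctGGACTcagttcca
ELFN1-AS1: agcagccaGGACTggacagac

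At the median, the density of GGACT lay between 0.88 and 1.0 per kb in each set of genes compared. It was 0.97 per kb over the 521 members with a GENCODE 29 model, 1.0 per kb in the 24 of these that rose and 0.88 per kb in the 11 that fell, against 0.91 per kb in protein-coding genes at the same minimum level. At least 1 GGACT was present in 427 of the 521 members (82.0%), in 16 of the 24 that rose (66.7%) and in 8 of the 11 that fell (72.7%), against 82.9% of the members not called and 93.9% of the protein-coding genes. The longest transcripts of the protein-coding genes had a median length of 3838 bases. The longest transcripts of the members that rose had a median length of 1758 bases, those that fell 2261 bases and those not called 2284 bases. LINC00205 carried 10 copies in 7540 bases and LINC00632 carried 7 in 21221 bases. The transcripts of HIF1A-AS3 and AC112721.1, which fell, and of LINC00513 and AC111149.2, which rose, had 0 copies. These shares are descriptions, and no difference in density was tested.

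Expressed lncRNA genes responded to the knockdown in small number and in both directions. All 545 passed the low-count filter of the fit over 16802 genes, and 36 of them (6.61%) had an adjusted p under 0.05 in edgeR with Benjamini-Hochberg adjustment over all genes. Such genes are referred to as called. Over all genes tested the called share was 10.8%, and over the 11365 protein-coding genes with the same minimum level it was 14.8%. Of the 36 lncRNA genes, 25 rose (4.59% of members, against 5.43% of all genes) and 11 fell (2.02%, against 5.42%). In single libraries, both sh812 libraries lay outside the shNC range, on 1 side, in 261 members (47.9%), against 53.6% of all genes, and all 36 called members were among them. Of the 261, 146 were higher in sh812 (26.2% of all genes were) and 115 lower (27.4% of all genes). The median log2 fold change of the 545 was 0.021, against -0.006 for all genes tested, and the middle 50% lay between -0.16 and 0.22. The extremes were -0.91 and 1.20, and 4 called members, all of which rose, changed by at least 2-fold in the fit to all libraries. Among these, AL355916.1, HHLA3-AS1 and AC124045.1 passed the minimum through sh812 alone, so their rises are tied to the minimum. At an unadjusted p under 0.05 there were 99 members, or 4161 (24.8%) of all genes.

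The split between rises and falls depended on how the libraries were scaled. Of the called members 69.4% were higher in the fit with TMM factors, and 51.4% (19 higher and 18 lower) with library size alone. Removal of each library's trend on exon length gave 17 higher and 12 lower, or 58.6% higher. DESeq2 called 15 members (10 higher and 5 lower), all of them also called in the same direction by edgeR. Over all genes it called 1283 of the 12310 that it gave an adjusted p (10.4%).

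Low counts set much of the precision. Of the 545 genes, 317 (58.2%) had a mean under 5 CPM and 42 had a mean of at least 20 CPM. The median SE of the log2 fold change was 0.21, against 0.09 in protein-coding genes at the minimum level. Among members between 2 and 5 CPM, 15 of 317 were called (4.73%), against 68 of 945 protein-coding genes in that range (7.2%). Between 5 and 20 CPM, the counts were 12 of 186 members (6.45%) and 265 of 2794 protein-coding genes (9.48%). At 20 CPM and above they were 9 of 42 members (21.4%) and 1347 of 7626 protein-coding genes (17.7%). The called share was thus higher at higher abundance in both kinds of gene, and the lncRNA share was the lower of the pair in 2 of the 3 ranges. These differences in share were not tested. In 45 members 1 group alone had a mean of at least 2 CPM, and 4 of these were called (AC012313.8, AC124045.1, HHLA3-AS1 and AL355916.1), all of them higher in sh812. A member that passes the minimum through 1 group alone had to differ between groups, so these 4 rises are tied to the minimum.

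**Figure D1:**
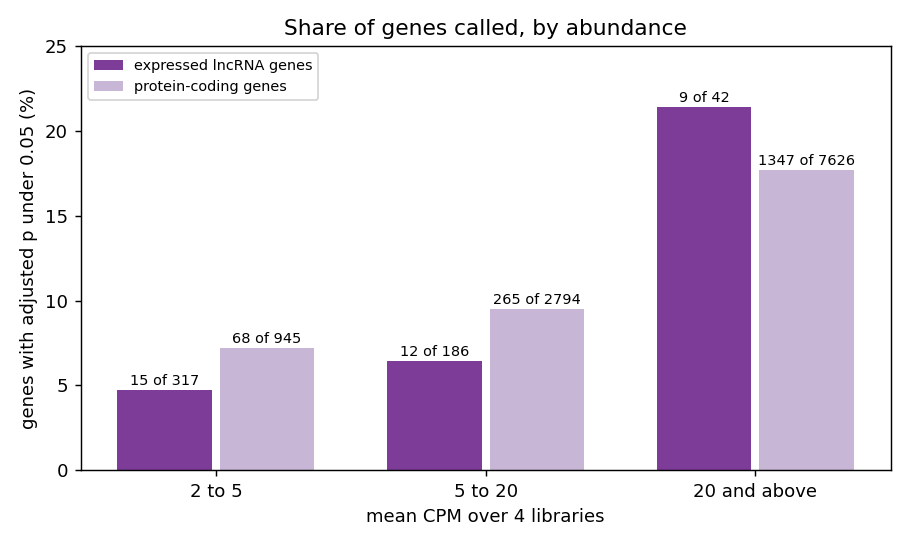
Share of genes called (percent, adjusted p under 0.05 in edgeR) in 3 ranges of mean CPM over 4 libraries, for expressed lncRNA genes (dark bars) and protein-coding genes (light bars), with the numbers of genes above the bars. The lncRNA share ran from 4.73% of 317 genes in the lowest range to 21.4% of 42 genes in the highest.

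**Figure D2:**
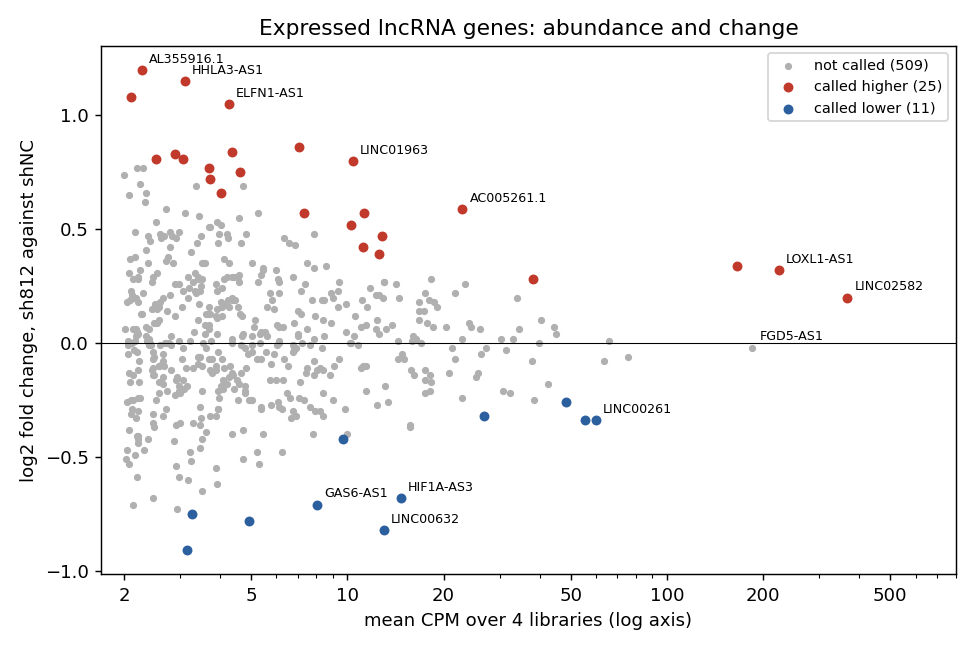
Log2 fold change of sh812 against shNC for each of the 545 lncRNA genes, against mean CPM over the 4 libraries on a log axis, with called rises in red, called falls in blue and other genes in grey. The 4 called changes of at least 2-fold lie under 5 CPM, and the most abundant gene, LINC02582, lies at 0.20.

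The 8 largest falls were seen in genes with mean levels from 3.15 CPM for AC112721.1 to 55.5 CPM for EBLN3P, and 3 of the 4 largest lay under 5 CPM. LINC00632, on chromosome X from 140709562 to 140793215 (plus strand, GENCODE 29 on GRCh38, as for all positions below), is the gene whose locus gives rise to the circular RNA CDR1as, which poly(A) RNA does not capture well and which was not measured here. It had 673 and 485 counts in shNC and 329 and 335 in sh812. The sh812 libraries were nearly equal and lay well below both controls. Its level fell from 16.5 ± 1.70 to 9.37 ± 0.00797 CPM (SD, n = 2, scaled with TMM factors, as are all group means), which is a log2 fold change of -0.82 (SE 0.13, edgeR adjusted p = 0.000114). Its exons overlap those of CDR1 on the opposite strand over 2.73% of their length.

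HIF1A-AS3 (chromosome 14, 61715558 to 61751097, minus strand) runs across the end of HIF1A, the gene of the oxygen-sensitive subunit of hypoxia-inducible factor, with no shared exon bases. Its counts were 744 and 519 in shNC and 393 and 406 in sh812, so the sh812 libraries were close to each other and below both controls. The log2 fold change was -0.68 (SE 0.12, edgeR adjusted p = 0.000698). GAS6-AS1, on chromosome 13 from 113815630 to 113845744, is antisense to GAS6, the gene of a ligand of the TAM receptor kinases. It had 414 and 283 counts in shNC and 208 and 224 in sh812, again without overlap. The log2 fold change was -0.71 (SE 0.15, edgeR adjusted p = 0.00376), and 5.87% of its exon bases overlap GAS6 on the opposite strand. Exons of GAS6-AS1 also overlap another gene on the same strand, so how reads were divided there is uncertain.

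A pair of neighbouring genes on chromosome 2, AC112721.1 and AC112721.2, fell together. AC112721.1 (237421420 to 237425276, minus strand) had 185 and 104 counts in shNC and 63 and 92 in sh812, with the nearest libraries of the groups close to each other. Its log2 fold change of -0.91 (SE 0.26, edgeR adjusted p = 0.0235) was -0.59 without shNC replicate 1. AC112721.2 (237428920 to 237434822, minus strand) had 249 and 185 counts in shNC and 122 and 135 in sh812, clearly apart. This gave a log2 fold change of -0.78 (SE 0.19, edgeR adjusted p = 0.00794). Also on chromosome 2, LINC01293 (74940258 to 74942670) had 163 and 122 counts against 86 in each sh812 library, with a log2 fold change of -0.75 (SE 0.23, edgeR adjusted p = 0.0348). DESeq2 gave these 3 genes adjusted p-values of 0.109, 0.0505 and 0.152, in that order.

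The other falls were smaller and were in more abundant genes, apart from AC009549.1. EBLN3P, on chromosome 9, derives from an ancient bornavirus-like element in the genome. It had 2498 and 1833 counts in shNC and 1738 and 1725 in sh812, and fell from 61.9 ± 5.58 to 48.9 ± 0.925 CPM (SD, n = 2). The log2 fold change was -0.34 (SE 0.08, edgeR adjusted p = 0.00589). LINC00261, on chromosome 20 beside the pioneer factor gene FOXA2, had 2600 and 2065 counts in shNC and 1760 and 1990 in sh812. Every sh812 library was below both controls, with a log2 fold change of -0.34 (SE 0.08, edgeR adjusted p = 0.0048). The same-strand gene AL121722.1 covers 86.08% of its exon bases, so how the reads of the pair were divided is uncertain. LINC00205, on chromosome 21, had 2037 and 1633 counts in shNC and 1471 and 1645 in sh812. After scaling, its group means were 52.7 ± 1.46 and 43.9 ± 2.87 CPM (SD, n = 2), and the log2 fold change was -0.26 (SE 0.08, edgeR adjusted p = 0.0341). AC009549.1 lies on chromosome 11 within the body of NAV2, a neuron navigator gene that fell by 0.32 on the log2 scale (edgeR adjusted p = 0.00824). It had 430 and 343 counts in shNC and 295 and 292 in sh812 (log2 fold change -0.42, SE 0.14, edgeR adjusted p = 0.0456). DLGAP1-AS2, chosen after its values were seen because it is the only called member below zero outside the naming rule, had a log2 fold change of -0.32 (edgeR adjusted p = 0.0267). With DESeq2, LINC00205, AC009549.1 and DLGAP1-AS2 were not called, at adjusted p-values of 0.0812, 0.178 and 0.079.

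Among the rises, the largest fitted changes belonged to low-abundance lncRNAs. AL355916.1, HHLA3-AS1 and AC124045.1 reached the minimum only through sh812, the group in which they were higher. AL355916.1, on chromosome 14 from 61570540 to 61658696, had 63 and 35 counts in shNC and 102 and 125 in sh812, and its log2 fold change was 1.20 (SE 0.29, edgeR adjusted p = 0.00881). Exons of AL355916.1 overlap another gene on the same strand, which leaves the division of reads uncertain. HHLA3-AS1, on chromosome 1 from 70359562 to 70360437, had 86 and 50 counts in shNC and 144 and 162 in sh812. The fitted log2 fold change was 1.15 (SE 0.25, edgeR adjusted p = 0.00335). In both genes the sh812 libraries lay well above the controls, and replicate 1 was the higher of the controls. AC124045.1, on chromosome 3, had 58 and 37 counts in shNC and 94 and 110 in sh812 (log2 fold change 1.08, SE 0.29, edgeR adjusted p = 0.0183). ELFN1-AS1, on chromosome 7 from 1738630 to 1742291 and studied in colorectal cancer, rose from 2.80 ± 0.603 to 5.78 ± 0.839 CPM (SD, n = 2). It had 90 and 102 counts in shNC and 182 and 228 in sh812, with a log2 fold change of 1.05 (SE 0.21, edgeR adjusted p = 0.00199). Without shNC replicate 2, AL355916.1, HHLA3-AS1 and AC124045.1 had log2 fold changes of 0.95, 0.93 and 0.92. Without shNC replicate 1 they had 1.53, 1.45 and 1.3. ELFN1-AS1 had 0.84 without shNC replicate 1 and 1.29 without shNC replicate 2. Each thus fell under 2-fold when a control library was left out.

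Another 3 of the 8 largest rises followed. AC111149.2, on chromosome 8, had 174 counts in each shNC library and 274 and 376 in sh812 (log2 fold change 0.86, SE 0.17, edgeR adjusted p = 0.00183). AL035071.1, on chromosome 20, had 82 and 132 counts in shNC and 204 and 194 in sh812. Its controls differed more than those of AC111149.2, and its log2 fold change of 0.84 (SE 0.23, edgeR adjusted p = 0.0208) became 0.43 when shNC replicate 1 was left out and 1.38 when shNC replicate 2 was. LINC00513, on chromosome 7, had 90 and 66 counts in shNC and 130 and 149 in sh812 (log2 fold change 0.81, SE 0.24, edgeR adjusted p = 0.0272). DESeq2 left AC124045.1, AL035071.1 and LINC00513 uncalled, at adjusted p-values of 0.079, 0.0997 and 0.118.

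**Figure D3:**
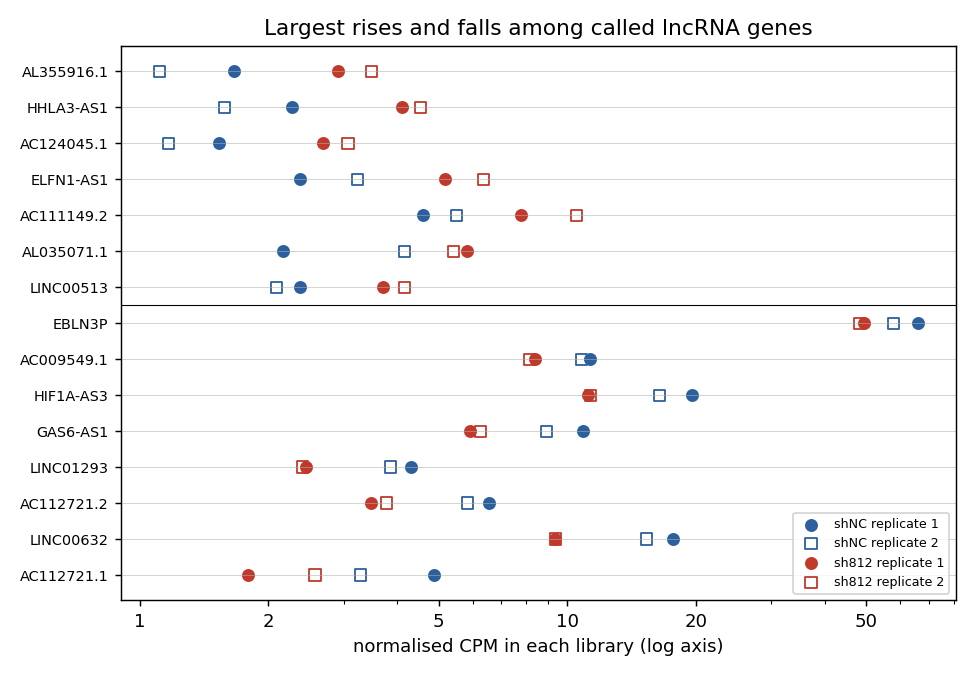
CPM scaled with TMM factors, on a log axis, in each of the 4 libraries for 7 of the 8 largest rises (above the line) and the 8 largest falls (below it) among called lncRNA genes, with shNC in blue, sh812 in red, replicate 1 as filled circles and replicate 2 as open squares. The groups do not overlap in any of the genes, and in EBLN3P, for example, the sh812 libraries lie at 49.5 and 48.2 CPM and the shNC libraries at 65.9 and 58.0 CPM.

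The remaining called rises, chosen for mention after their values were seen, spanned log2 fold changes of 0.28 to 0.81. The smallest adjusted p among them was that of LINC01963, on chromosome 2. It had 275 and 255 counts in shNC and 437 and 504 in sh812, with little spread within groups beside the difference. Its log2 fold change was 0.80 (SE 0.14, edgeR adjusted p = 0.000401), and DESeq2 gave an adjusted p of 0.00152. AC005261.1, on chromosome 19, had 549 and 707 counts in shNC and 903 and 1057 in sh812. Its log2 fold change of 0.59 (SE 0.14, edgeR adjusted p = 0.00569) became 0.31 when shNC replicate 1 was left out and 0.94 when shNC replicate 2 was. AL137800.1 (0.57), LINC00997 (0.66), LINC01444 (0.75) and AC099850.1 (0.77) also rose. So did AC012313.8 (0.81), KLHL7-DT (0.72), AP002360.1 (0.52) and AC093297.2 (0.57, and 0.36 without sh812 replicate 2). AC092747.4 (0.47), AC027031.2 (0.42), GIHCG (0.39) and LINC00973 (0.28) had the smallest changes of this set. These values are log2 fold changes, and each of the 12 had an adjusted p between 0.00732 and 0.0491 in edgeR. DESeq2 called AC005261.1 (adjusted p = 0.0166) and AL137800.1 (adjusted p = 0.0303) and left the other 11 uncalled, at adjusted p-values of 0.0587 to 0.176.

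The 10 most abundant members held 26.0% of the CPM of all 545, and 6 of the 10 were called. At 20 CPM and above, 9 of 42 members (21.4%) and 17.7% of protein-coding genes were called, against 10.8% of all genes tested. LINC02582 (chromosome 18, 73324941 to 73349878) was the most abundant, at a mean of 367 CPM. It had 13152 and 10661 counts in shNC and 13607 and 14226 in sh812. After scaling, the sh812 libraries (388 and 398 CPM) were above the shNC libraries (347 and 337 CPM), a log2 fold change of 0.20 (SE 0.06, edgeR adjusted p = 0.0241). This small rise was not called with library size alone (0.15, adjusted p = 0.0669) or with the exon length trend removed (0.14, adjusted p = 0.125).

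LOXL1-AS1 is transcribed antisense to LOXL1, the gene of an elastin cross-linking enzyme, and averaged 224 CPM. Its counts were 7603 and 6272 in shNC and 8461 and 9195 in sh812. The rise was from 199 ± 1.50 to 249 ± 11.2 CPM (SD, n = 2), a log2 fold change of 0.32 (SE 0.06, edgeR adjusted p = 0.000898). AL161431.1, an unspliced transcript in the longest model on chromosome 13, had 5684 and 4535 counts in shNC and 6601 and 6538 in sh812. It rose from 147 ± 4.56 to 185 ± 3.78 CPM (SD, n = 2), a log2 fold change of 0.34 (SE 0.06, edgeR adjusted p = 0.000595). In both genes the spread within groups was small beside the difference.

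By contrast, 4 of the most abundant members were not called. FGD5-AS1 had 7157 and 5822 counts in shNC and 6352 and 6716 in sh812, at 186 ± 3.25 and 184 ± 4.75 CPM (SD, n = 2). Its log2 fold change was -0.02 (SE 0.06, edgeR adjusted p = 0.908). LINC00857, studied in several cancers, had a value of -0.06 (SE 0.07), MIR100HG, host of a microRNA cluster, 0.01 (SE 0.08), and OTUD6B-AS1, which starts 7 bases from the start of the deubiquitinase gene OTUD6B, -0.08 (SE 0.08). Their groups overlapped. With SEs of 0.06 to 0.08, these are among the best measured members. LINC00261, EBLN3P and LINC00205, described above, complete the 10.

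Per kb of exon, the order changed. LINC02582 stayed first, at 161 CPM per kb, and was followed by AC099850.3 at 64.7, LOXL1-AS1 at 53.1, LINC00973 at 39.7 and FGD5-AS1 at 36.1 CPM per kb. HIF1A-AS3, with 533 exon bases, ranked 10th at 27.5 CPM per kb, whereas MIR100HG had 3.41 and LINC00632, with 28876 exon bases, 0.449 CPM per kb. The median over the 521 members with a model was 1.85 CPM per kb.

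The 7 lists of well-studied lncRNAs held 46 members, of which 0 were called by edgeR or DESeq2 and 8 had an unadjusted p under 0.05 in edgeR. Of all 545 members, edgeR called 36 (6.61%) and DESeq2 15, and 99 had an unadjusted p under 0.05 in edgeR. The lists held few genes, and whether they differ from the other members was not tested. The 8 list members with such a p were all in the list of cancer-studied lncRNAs, with 33 members, and each other list had 8 members or fewer. The median log2 fold change of the 33 was 0.05, between -0.48 for AFAP1-AS1 and 0.57 for TPT1-AS1. AFAP1-AS1 had 261 and 241 counts in shNC and 200 and 168 in sh812 (edgeR adjusted p = 0.0706). LINC00511 had 614 and 607 counts in shNC and 493 and 483 in sh812, a log2 fold change of -0.36 (SE 0.12, edgeR adjusted p = 0.0531). HCG18 had a log2 fold change of -0.25 (SE 0.09, edgeR adjusted p = 0.0575). The groups of these 3 genes did not overlap, and they were chosen after their values were seen.

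Of 21 microRNA host genes in the list, 8 were members, with log2 fold changes from -0.24 for MIR4435-2HG to 0.25 for MIRLET7BHG and a median of 0.03. MIR22HG had 0.00 and MIR31HG 0.05. Of 14 prostate lncRNAs, 4 were members, namely PCAT1, PCAT6, PCAT7 and CTBP1-DT. PCAT1 had 62 and 100 counts in shNC and 53 and 65 in sh812, so its groups overlapped, and its log2 fold change of -0.51 had an SE of 0.33. PCAT7 and PCAT6 had -0.21 and 0.26, with SEs of 0.19 and 0.24. Of 17 lncRNAs of the HOX clusters, HOTTIP (-0.28, SE 0.17) and HOXA11-AS (0.05, SE 0.19) were members. FTX, a lncRNA of the X inactivation centre, had 0.10 (SE 0.11), the p53-linked TP53TG1 -0.00 (SE 0.28), and the small nucleolar RNA hosts DANCR and EPB41L4A-AS1 0.06 (SE 0.09) and -0.00 (SE 0.17). A p that misses the threshold does not show that a gene did not change.

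The names of the members give a coarse view of their kind. Among the name classes, LINC names had the highest called share, 10 of 72 (13.9%, 6 higher and 4 lower). Over all genes tested the share was 10.8%, and over protein-coding genes at the minimum level 14.8%. Differences between the classes were not tested. Clone names, given to genes without an approved symbol, made up 223 members (40.9%), of which 16 were called (7.17%, 13 higher and 3 lower). Among 147 genes named as antisense, 7 were called (4.76%, 4 higher and 3 lower). Of 30 named as divergent transcripts 1 was called, of 11 microRNA hosts by name 0, of 59 other symbols 2, and of 3 overlapping or intronic transcripts 0. GENCODE 29 held a model for 521 members and typed 217 as lincRNA and 210 as antisense. It typed 4 as protein-coding (LINC02693, TMEM99, HHLA3 and C10orf55) and 1, RNF216P1, as a pseudogene, while the deposited table has them as lncRNA.

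The called share differed with the arrangement in the genome, a difference that was not tested. Over all genes tested the share was 10.8%, and over all members 6.61%. Members whose exons overlap no other gene were called in 27 of 254 cases (10.6%), near the share of all genes. Those overlapping only a gene on the other strand were called in 5 of 203 (2.46%). Of the 64 that overlap a gene on the same strand, 3 were called (4.69%), namely GAS6-AS1, LINC00261 and AL355916.1. A head to head arrangement, with the start within 1000 bases of a protein-coding start on the other strand, was found for 185 members, of which 6 were called (3.24%), against 29 of the 336 other members with a position (8.63%). How strand was treated in the counting is not stated, so it is not known whether reads of overlapping antisense pairs were separated. Whether that bears on the shares was not tested. Members with a single exon in the longest transcript were called in 10 of 126 cases (7.94%), 9 of them higher. Those with several exons were called in 25 of 395 (6.33%), 15 of them higher.

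The balance of rises and falls also differed with exon length, and this was not tested. Of the 174 members with the least exon length (up to 2015 bases), 12 rose (6.9%) and 5 fell (2.87%). The counts were 8 (4.62%) and 1 (0.578%) among the 173 in the middle. Among the 174 longest (above 3778 bases) they were 4 (2.3%) and 5 (2.87%). Over all genes tested, 5.43% were called higher and 5.42% lower. Across the 521 members with a model, the Spearman correlation of the log2 difference between group means with exon length was -0.142. The same measure was -0.169 between the shNC replicates (2 against 1) and -0.0142 between the sh812 replicates, so a length trend of that size was also present between the controls. Members share libraries and are not independent, and these correlations are descriptions. With the trend removed in every library, 29 members were called, 27 of them among the 36.

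Partner genes were compared where a member is named after a tested protein-coding gene, which gave 170 pairs out of 180 members with such a name. The fold changes of the lncRNA and its partner had the same sign in 92 pairs (54.1%), and Pearson's r across the pairs was 0.0676. In 84 pairs that start head to head, 43 had the same sign (r = 0.0181), and in 78 pairs that overlap on opposite strands, 44 did (r = 0.0823). The lncRNA was called in 7 of the 170 pairs, the partner in 18 and both in 1. Beside these counts, 6.61% of all members and 10.8% of all genes tested were called.

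In the 6 pairs where the lncRNA alone was called, the partner's fitted change was smaller. The choice of pairs favours this, because the lncRNA had to pass the threshold and the partner had to miss it. GAS6, beside the fall of GAS6-AS1, had 686 and 499 counts in shNC and 578 and 666 in sh812, with overlapping groups and a log2 fold change of 0.05 (SE 0.12, edgeR adjusted p = 0.851). HIF1A had -0.13 (SE 0.06, edgeR adjusted p = 0.16), against -0.68 for HIF1A-AS3. LOXL1 had 0.24 (SE 0.08, edgeR adjusted p = 0.0703), against 0.32 for LOXL1-AS1. ELFN1, with 56 to 85 counts, had 0.42 (SE 0.30, edgeR adjusted p = 0.412), and KLHL7 had 0.07 beside 0.72 for KLHL7-DT. DLGAP1, with 53 to 76 counts, had -0.06 (SE 0.32) beside -0.32 for DLGAP1-AS2. The differences between lncRNA and partner were not tested.

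Partners that were called, with lncRNAs that were not, were also found, and these pairs were chosen after their values were seen. ITGB1, the integrin beta 1 gene, fell from 110871 and 86966 counts in shNC to 67371 and 68357 in sh812 (log2 fold change -0.57, edgeR adjusted p = 9.97e-08), while ITGB1-DT had -0.07. HAS2, a hyaluronan synthase gene, fell by 0.54 on the log2 scale, and HAS2-AS1 had 0.01. ID2 had -0.45 and ID2-AS1 -0.48, SOCS2 had -0.40 and SOCS2-AS1 -0.42, and GATA2 had 0.41 and GATA2-AS1 0.77, each pair on the same side of 0. Values of opposite sign were seen in SH3PXD2A (-0.56) and SH3PXD2A-AS1 (0.23), in SREBF2 (-0.27) and SREBF2-AS1 (0.32), in IGF2BP2 (-0.26) and IGF2BP2-AS1 (0.22), and in BOLA3 (0.33) and BOLA3-AS1 (-0.19). Over the 18 pairs with a called partner, 8 had the same sign in both genes (44.4%).

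**Figure D4:**
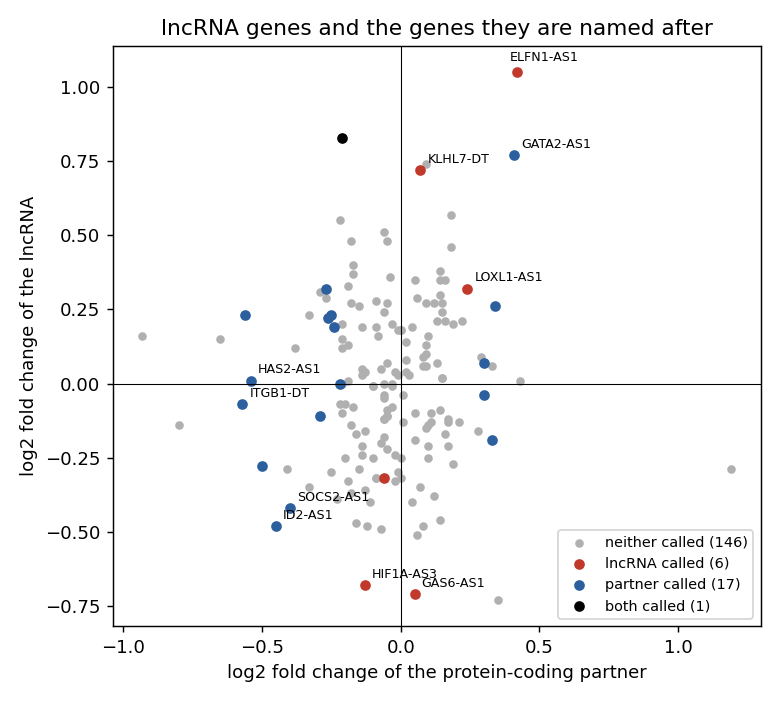
Log2 fold change of each lncRNA gene against that of the protein-coding gene it is named after, for 170 pairs, with the lncRNA alone called in red, the partner alone in blue, both in black and neither in grey. The pairs spread over all 4 quadrants, with 92 of 170 on the same side of 0.

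Around the called members, some neighbouring genes moved in the same direction. A called protein-coding gene started within 100000 bases of 9 of the 25 called members that had a tested start in that window (36.0%), and of 96 of 401 members not called (23.9%). This difference was not tested, and called neighbours such as AC112721.1 and AC112721.2 share a window. COL6A3, a collagen VI chain gene whose start lies 10901 bases from that of AC112721.1, had 9563 and 7537 counts in shNC and 6684 and 7246 in sh812. Its log2 fold change was -0.32 (SE 0.06, edgeR adjusted p = 0.00108), while MLPH on the other side had -0.01. Near HIF1A-AS3, SNAPC1, a subunit gene of the small nuclear RNA activating complex, fell by 0.29 and SYT16 by 0.37 on the log2 scale (adjusted p = 0.00291 and 0.0113 in edgeR).

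POFUT2, a protein O-fucosyltransferase gene, starts 152 bases from LINC00205 on the other strand. It had 2077 and 1792 counts in shNC and 1599 and 1620 in sh812, a log2 fold change of -0.29 (SE 0.08, edgeR adjusted p = 0.0132), beside -0.26 for LINC00205. Around AC111149.2, the ribosomal protein gene RPL7 and the retinol dehydrogenase gene RDH10 had 0.27 and 0.31 (adjusted p = 0.00235 and 0.00413 in edgeR). CTH, a transsulfuration enzyme gene near HHLA3-AS1, had 0.40 (edgeR adjusted p = 0.0205), and HHLA3 itself, also a member, 0.29 (edgeR adjusted p = 0.283). Not every locus was of 1 sign. FOXA2, next to LINC00261, had 0.05 (SE 0.08), and OXR1, near AC027031.2, was called at -0.41 while the lncRNA rose. The neighbours were chosen after their values were seen.

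**Figure D5:**
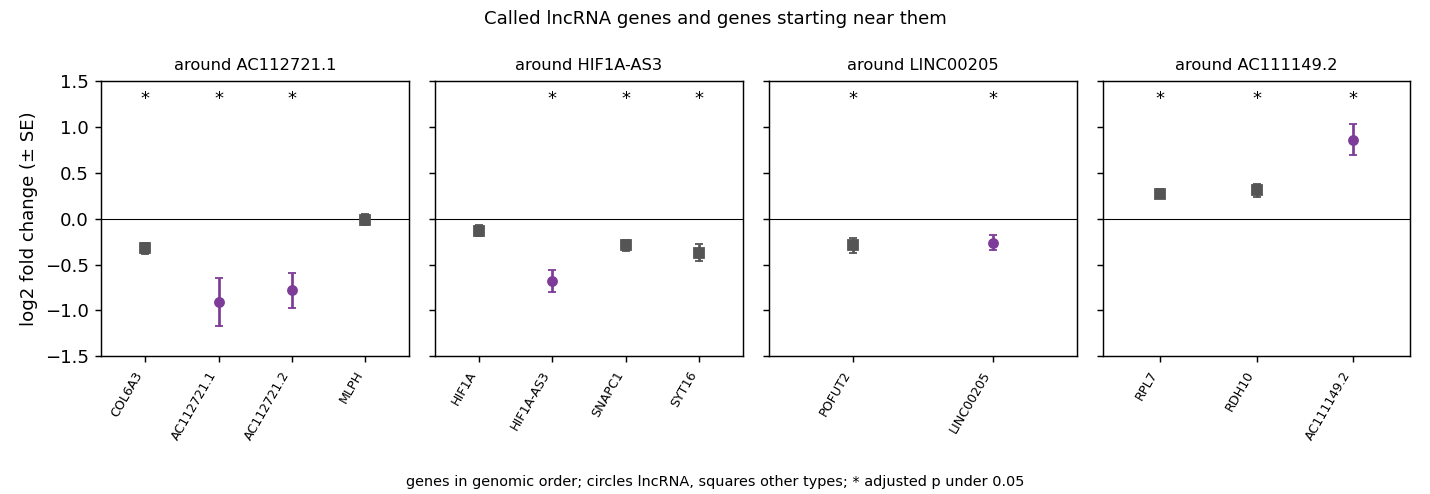
Log2 fold change with SE (bars) for called lncRNA genes (circles) and protein-coding genes that start within 100000 bases of them (squares), in genomic order in 4 loci, with stars where the adjusted p was under 0.05. At AC112721.1, HIF1A-AS3 and LINC00205 the called genes lie below 0, and at AC111149.2 above it.

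Promoters of 4 called members that represent the rises and falls above are printed from RefSeq (GRCh38.p14), as 250 bases before to 50 after the annotated start, on the strand of the gene, 5′ to 3′. They were searched on both strands for TATAAA, which is a form of the TATA box, for CCAAT, the core of the box of that name, and for GGGCGG, the core of the GC box. None of these motifs holds another, and the capitals mark matches. The promoters are LOXL1-AS1 at chr15:73928199-73928498 (minus strand), LINC00261 at chr20:22578593-22578892 (minus strand), HIF1A-AS3 at chr14:61751048-61751347 (minus strand) and ELFN1-AS1 at chr7:1742261-1742560 (minus strand).
LOXL1-AS1: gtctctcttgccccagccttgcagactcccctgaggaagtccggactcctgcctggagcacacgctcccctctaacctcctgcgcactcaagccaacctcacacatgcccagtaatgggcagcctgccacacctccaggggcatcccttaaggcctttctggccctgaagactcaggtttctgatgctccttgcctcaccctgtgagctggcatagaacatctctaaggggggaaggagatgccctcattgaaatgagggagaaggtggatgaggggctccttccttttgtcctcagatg
LINC00261: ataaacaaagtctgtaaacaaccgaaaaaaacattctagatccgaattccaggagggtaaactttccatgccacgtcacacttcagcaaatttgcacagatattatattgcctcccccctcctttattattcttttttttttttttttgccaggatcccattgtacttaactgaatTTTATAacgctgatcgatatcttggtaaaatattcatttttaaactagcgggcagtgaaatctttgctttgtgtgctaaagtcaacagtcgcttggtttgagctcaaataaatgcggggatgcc
HIF1A-AS3: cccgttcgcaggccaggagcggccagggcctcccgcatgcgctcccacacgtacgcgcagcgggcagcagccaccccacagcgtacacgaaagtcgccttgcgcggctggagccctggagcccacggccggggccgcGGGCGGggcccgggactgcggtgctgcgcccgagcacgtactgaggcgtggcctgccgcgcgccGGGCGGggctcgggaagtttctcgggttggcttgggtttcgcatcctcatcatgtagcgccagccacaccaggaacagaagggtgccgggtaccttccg
ELFN1-AS1: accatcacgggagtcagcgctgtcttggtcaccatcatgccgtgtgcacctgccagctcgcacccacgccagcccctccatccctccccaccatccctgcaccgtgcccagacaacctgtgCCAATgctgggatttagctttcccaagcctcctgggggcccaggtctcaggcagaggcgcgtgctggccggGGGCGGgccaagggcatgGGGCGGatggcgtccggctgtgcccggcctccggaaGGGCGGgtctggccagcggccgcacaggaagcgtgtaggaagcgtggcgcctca

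The promoters of these members differed in composition. That of LOXL1-AS1 held 0 matches and 3 CG dinucleotides, and that of LINC00261 held 1 TATAAA and was 37.0% G or C. The HIF1A-AS3 promoter held 2 GGGCGG and 36 CG dinucleotides, at 72.3% G or C, and that of ELFN1-AS1 held 1 CCAAT and 3 GGGCGG. RefSeq had an entry of 300 bases for 220 members, of which 7.27% held TATAAA, 41.4% CCAAT and 55.5% GGGCGG. Over all 27305 such promoters the shares were 12.0%, 35.7% and 44.6%. Among the 11 called members with an entry, 2 held TATAAA, 2 CCAAT and 3 GGGCGG. A match is a description of the letters in the window and says nothing of factor binding.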

How the data were processed

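The authors deposited 1 table of raw read counts per gene, with identifiers, names and gene types, for 4 PC3 libraries from poly(A) RNA, prepared with dUTP second-strand marking, per the labels' protocols. Per the submitters' processing notes, fastp, STAR 2.7.1a, featureCounts, DESeq2 and the build hg38 were used, without their roles. The strand setting and annotation release of the counting are not given in the sources used here. Totals differed between libraries, as in counts that were not normalized, and ran from 31450648 to 37041330. Libraries of a group differed by more than sampling noise (chi-square per gene 8.43 in shNC and 4.51 in sh812), and each library was taken as 1 replicate. That spread does not show whether the libraries came from separate cultures.

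All genes were fitted in edgeR 4.0.16 (R 4.3.3) with filterByExpr, TMM factors and the quasi-likelihood functions glmQLFit and glmQLFTest. The model held the group alone and used the 4 libraries. After filtering, 16802 genes were tested and adjusted together by Benjamini-Hochberg, and an adjusted p under 0.05 was a call. SEs were derived from the F statistic. The scripts were tested on simulated counts. Counts set the precision: among called members the SE ran from 0.06 to 0.29.

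Positions, overlaps and transcript sequences came from GENCODE 29 (GRCh38), matched by identifier for 521 of 545 members, and promoters from RefSeq (GRCh38.p14), matched by symbol for 220. The members and the gene lists were chosen with earlier results of these data known. Genes named by rule were METTL3, the 10 most abundant members, the 8 largest rises and 8 largest falls among called members, called members of the lists, partners of these, and the members next to the minimum. Not all genes so selected are reported here. Alternatives were library size alone, RLE factors, DESeq2 1.42.0, no filter on low counts, the replicate number as a block, each library left out, the trend on exon length removed (lowess of span 0.3), and a minimum of 1 or 5 CPM. Libraries of the same number deviated from their group means with a correlation of 0.0164 across genes.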

Additional observations from a re-analysis of the deposited data

How the results depend on the processing

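Against 36 called members, the count was 36 with RLE factors, 37 with library size alone, 42 without the low-count filter, 29 with the length trend removed and 43 at a minimum of 1 CPM. DESeq2 gave 15 (10 higher and 5 lower), and a minimum of 5 CPM, which leaves 228 genes, gave 21 (13 higher and 8 lower). Library size alone gave 19 higher and 18 lower, against 25 and 11, and of the 36 members 30 were called in the same direction there and 27 with the length trend removed. For these shifts the cause was not tested, except that a higher minimum leaves fewer genes. The median log2 fold change of the members, 0.021, was -0.024 with library size alone (where that of all genes was -0.0503) and -0.007 with the length trend removed. With each library left out it ran from 0.017 to 0.07, the latter without shNC replicate 1. Leaving out a library gives values and no calls, and METTL3 ran from -2.52 to -2.33 there, and from -2.47 to -2.38 over the tests. The pairs with the same sign, 92 of 170, ran from 86 to 99. Of the 21 called members named by rule, 12 were called with DESeq2, 18 with the length trend removed, and 20 each with library size alone (without LINC02582) and without the low-count filter (without AC009549.1, adjusted p = 0.0568 in edgeR), and 0 reversed. With the length trend removed, LINC00205 (adjusted p = 0.0918), LINC00513 (0.0526) and LINC02582 (0.125) were not called by edgeR. Replicate numbers recur across the groups, no label ties a number to a batch, and the correlation of same-numbered libraries gave no sign of pairing. The replicate block gave 44 called members (29 higher and 15 lower), 36 of them shared, a median of 0.022, 94 pairs of the same sign and -2.42 for METTL3. Precision is limited by depth, since 317 of the 545 members had a mean under 5 CPM.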
